A study of Mus musculus with 4 samples.

Results

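Thymic epithelial cells (TECs) that lack CD40 were compared with wild-type TECs while the cytokine RANKL was blocked in both, to describe what CD40 sustains when RANKL is out of action. The members were all cells of the Cd40-/- RANKL-Ab and WT-RANKL-Ab libraries that had 200 or more genes and no more than 25% of unique molecular identifiers (UMIs) from mitochondrial genes, which gave 9246 of the 28055 cells kept from 4 libraries. Changes are described in the composition of marker-gated cell classes and, gene by gene, within each class.

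Medullary TECs (mTECs) teach developing T cells tolerance to self by presenting tissue antigens, many of them switched on by the regulator Aire. Their maturation depends on NF-kB signals from receptors of the TNF receptor family, among which RANK responds to RANKL and CD40 responds to CD40 ligand on T cells. Mature mTECs go on to mimetic cells, which take over programs of tuft, microfold, muscle, gut and skin cells, while CCL21-secreting mTECs attract thymocytes into the medulla and cortical TECs (cTECs) support their early development.

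The 4 libraries were made from C57BL/6 wild-type (WT) mice and, on the same background, mice with a constitutive deletion of Cd40, each given either a neutralizing antibody to RANKL at 5 mg/kg or control IgG under the skin at 4 weeks of age and killed at 6 weeks. TECs sorted as EpCAM-positive, CD45-negative and TER119-negative cells from 3 mice were pooled into each droplet-based library, so a library stands for a condition and none has a replicate. The WT mice were female, and the sex of the Cd40-/- mice is not stated. Antibody treatment was 2 weeks old when the cells were taken. WT-Control gave 10218 kept cells of 10590 barcodes with 95277834 UMIs, WT-RANKL-Ab 7164 of 7446 with 48640841, Cd40-/- Control 8591 of 9118 with 66295255 and Cd40-/- RANKL-Ab 2082 of 2099 with 19153685. Median depth was 7621.5, 6086, 6267 and 7531.5 UMIs per cell in the same order, over 2456, 2321, 2305 and 2611 genes. Shares carry exact Clopper-Pearson 95% intervals and ratios exact conditional intervals, which cover counting error alone and not differences between mice or preparations. A count of 0 is given the limit of 3 counts, and a gene's fold of at least some value is set against that limit.

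Cd40 itself (ENSMUSG00000017652, mm10 chromosome 2, 165055627 to 165072948, + strand) was at 110.0 CPM (UMIs per 1000000) in WT-Control and 28.8 in WT-RANKL-Ab, and with Cd40 deleted at 5.75 CPM under control IgG and 4.75 under the antibody, from 10480, 1399, 381 and 91 UMIs. Residual UMIs in deleted mice can come from a 3' tag outside the deleted stretch, which was not tested. A UMI of Cd40 was found in 13.2% of the cells of WT-RANKL-Ab and in 3.94% of those of Cd40-/- RANKL-Ab, at median depths of 6086 and 7531.5 UMIs. Among thymocyte-gated cells of Cd40-/- RANKL-Ab, with a median of 1669 UMIs, 0 of 208 had one, which allows up to 1.44%. With every cell thinned to 1000 UMIs, the shares over all cells were 2.52% and 0.448%. Aire, which the labels do not name, stood at 333 and 283 CPM without the antibody in WT and Cd40-/- and went from 34.5 to 2.77 CPM with it. An Aire UMI was found in 17 of the 2082 cells of Cd40-/- RANKL-Ab (0.817%, 0.476% to 1.30%) and in 2 of its 208 thymocyte-gated cells (0.962%, 0.117% to 3.43%), which are shallower. With cells thinned to 1000 UMIs it was found in 5 of 2008 and 0 of 187, too few to set a background. Epcam, the sorted epithelial antigen, was at 834, 722, 652 and 523 CPM in the library order above, and Ptprc, which encodes the excluded CD45, at 5.98, 26.9, 41.0 and 58.5 CPM. Xist, which marks cells with an inactive X chromosome, was at 1187, 1759, 1805 and 1608 CPM, and Ddx3y, Eif2s3y and Uty of the Y chromosome had 0 UMIs in every library.

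A pair of properties set these libraries apart before any result. First, Cd40-/- Control and Cd40-/- RANKL-Ab share 205 barcodes, 2.39% and 9.85% of their cells. The shared barcodes have a median of 723 UMIs in the former and 24073 in the latter, with a median ratio of 35.2 between them (quartiles 33.2 and 37.8), and 78.0% fell into the same gate in both. In the other 5 pairs of libraries, 17 to 116 barcodes are shared, at median ratios of 0.843 to 1.94. Whether reads passed between these libraries was not tested. For WT-RANKL-Ab and Cd40-/- RANKL-Ab, shares, counts of genes and list medians were also computed without every barcode that either shares with any other library. They are given both ways where they differ most. Values of WT-Control and Cd40-/- Control keep the shared barcodes throughout. Second, WT-Control and Cd40-/- RANKL-Ab are high, and WT-RANKL-Ab and Cd40-/- Control low, in a set of genes for ribosomal and mitochondrial proteins, a split that follows neither genotype nor antibody. Its cause was not tested, and its genes are described after the cell classes.

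Cells were assigned to gates by summed marker UMIs per 10000 UMIs of the cell, each cell to the first gate passed. The names of the classes stand for the markers and not for established identity: Ccl21a-high for CCL21-secreting mTECs, Aire-high for cells with Aire and its partner genes, cTEC-high, progenitor-high, tuft, cycling, and smaller gates for other mimetic programs. Thymocyte-gated cells carry T lineage UMIs, and thymocyte-cTEC those of both T cells and cTECs. Gates overlap, since 32.0% of cells in WT-RANKL-Ab and 33.8% in Cd40-/- RANKL-Ab passed more than 1 threshold. Between 0.5 and 2 times the threshold lay 1455 and 123 cells for Aire, 751 and 103 for Ccl21a, 434 and 201 for cTEC, 802 and 709 for progenitor and 84 and 4 for tuft markers.

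Composition was compared to ask which TEC classes persist in the absence of both signals. With RANKL blocked, loss of Cd40 was accompanied by far smaller shares of Aire-high and mimetic cells, smaller shares of tuft and cycling cells, and larger shares of cTEC-high, progenitor-high and thymocyte-gated cells. The share of Ccl21a-high cells moved least. Each cell counts in the first gate it passes. The size for Aire-high cells depends on that order. The difference in cycling cells ends when the other gates are ignored, which counts cycling thymocytes too. Without the antibody, between libraries that share none with this comparison, the Aire-high and mimetic shares of Cd40-/- differed far less from WT.

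Aire-high cells numbered 282 of 7164 (3.94%) in WT-RANKL-Ab and 3 of 2082 (0.144%) in Cd40-/- RANKL-Ab, a share 27.3-fold lower (95% interval, 9.25 to 133). In control-treated mice they made up 30.1% of WT and 22.0% of Cd40-/- cells, a share 1.37-fold lower (1.29 to 1.45). Early-Aire cells, gated on their own markers, went from 29 cells to 2, 4.21-fold lower (1.07 to 36.4). Both gates together fell from 4.34% to 0.240%, 18.1-fold (7.66 to 56.1), against 30.6% and 22.7% without the antibody. These counts are of cells that no earlier gate took. With the other gates ignored, 1183 cells of WT-RANKL-Ab (16.5%) and 64 of Cd40-/- RANKL-Ab (3.07%) passed the Aire threshold, a share 5.37-fold lower (4.18 to 7.02), against 52.0% and 34.4% in the controls, 1.51-fold lower (1.44 to 1.58). Over all kept cells, an Aire UMI was found in 546 of WT-RANKL-Ab and 17 of Cd40-/- RANKL-Ab. Most cells over the Aire threshold thus had none. The early-Aire threshold was passed by 936 and 86 cells, 3.16-fold lower (2.53 to 3.99). Cycling cells, the compartment that feeds mature mTECs, went from 1.93% to 0.528%, 3.65-fold lower (1.98 to 7.47), where the controls had 6.76% and 8.12%, 1.20-fold higher (1.08 to 1.34) in Cd40-/-. Ignoring the other gates, 285 cells (3.98%) and 82 (3.94%) passed the cycling threshold, 1.01-fold lower (0.788 to 1.31), so the difference ends there and concerns the cells left after the thymocyte and mimetic gates. Thymocyte-gated cells over the threshold are then counted too. In thymocyte-gated cells S-phase and mitotic genes summed to 4407 CPM in WT-RANKL-Ab and 3603 in Cd40-/- RANKL-Ab, against 604 and 642 CPM over all kept cells.

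Mimetic cells other than tuft fell from 171 cells (2.39%) to 5 (0.240%), 9.94-fold lower (4.18 to 31.0), against 8.89% and 7.28% in the controls, 1.22-fold lower (1.10 to 1.35). With thresholds times 0.5 the log2 ratio with the antibody was -1.58 in place of -3.31, outside this interval. Microfold cells, which sample antigen in gut epithelium, went from 51 cells to 1, 14.8-fold lower (2.54 to 597). Neuroendocrine cells went from 36 to 2, 5.23-fold lower (1.35 to 44.8), and keratinocyte-type cells from 23 to 1, 6.68-fold lower (1.09 to 275). For ciliated cells, at 14 and 1, a difference was not detectable (4.07-fold lower, 0.619 to 172), while with the other gates ignored 26 and 1 passed the ciliated threshold, 7.56-fold lower (1.24 to 310). Enterohepatic cells, with genes of gut and liver, went from 23 to 0 of 2082 cells, which allows up to 0.144%, and muscle cells from 19 to 0. The exact intervals of these ratios begin at 1.67-fold and 1.36-fold lower. Ionocytes, 5 in WT-RANKL-Ab, were at 0 too, which does not allow a fold. Tuft cells, chemosensory cells that release interleukin 25, were the mimetic class that persisted. Their share was 4.97% in WT and 3.15% in Cd40-/- mice without the antibody, and 9.0% and 2.93% with it, so that Cd40 loss went with a share 3.07-fold lower (2.36 to 4.06) with the antibody and 1.58-fold lower (1.36 to 1.83) without it. Blockade went with a tuft share 1.81-fold higher (1.61 to 2.04) in WT and with no detectable difference in Cd40-/- mice (0.929-fold, 0.692 to 1.23).

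The cTEC-high share rose from 7.40% to 16.0%, 2.17-fold (1.89 to 2.49), and from 1.90% to 7.66% without the antibody, 4.03-fold (3.43 to 4.76). For progenitor-high cells, whose markers are shared by stromal-like TECs, it rose from 6.88% to 10.5%, 1.53-fold (1.30 to 1.80), against 1.25% and 3.22%, 2.57-fold. With the other gates ignored 10.8% and 28.7% passed the progenitor threshold, 2.65-fold higher (2.38 to 2.95), and with thresholds doubled the log2 ratio of the gated share was 0.29 in place of 0.61. Both shares were thus highest in Cd40-/- RANKL-Ab. Ccl21a-high cells made up 56.7% (55.6% to 57.9%) in WT-RANKL-Ab and 50.6% (48.5% to 52.8%) in Cd40-/- RANKL-Ab, 1.12-fold lower (1.05 to 1.20), and 37.4% and 27.4% in the controls. Without thymocyte-gated cells in the denominator the shares were 60.6% (59.4% to 61.7%) and 59.5% (57.2% to 61.8%), and the difference ended. Of Ccl21a-high cells, 6.25% in WT-RANKL-Ab and 34.7% in Cd40-/- RANKL-Ab also passed the progenitor threshold, against 3.27% and 10.4% without the antibody. Shares of a library add up to its whole, so the loss of a class raises others, and cell numbers per thymus were not measured.

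Thymocyte-gated cells, which the sort for CD45-negative cells should have removed, rose from 4.13% to 9.99%, 2.42-fold (2.02 to 2.90), against 1.42% and 5.37%. Thymocyte-cTEC droplets, which hold UMIs of both and can be nurse complexes or doublets, rose from 2.23% to 5.0%, 2.24-fold (1.73 to 2.88). Without the antibody, where shared barcodes were kept, they rose from 0.333% to 4.71%. With the antibody, the log2 ratio of the thymocyte-cTEC share was 1.16 with the shared barcodes and -0.76 without them. Of the 104 cells of this class in Cd40-/- RANKL-Ab, 24 were then left. Its cells, at a median of 28260.5 UMIs there, are as deep as the shared barcodes, so leaving those out also takes away deep cells, and depth and sharing cannot be told apart. The log2 ratios of the other shares kept their sign without these barcodes: -4.77 became -4.57 for Aire-high, -1.62 became -1.49 for tuft, 1.12 became 1.07 for cTEC-high and 0.61 became 0.71 for progenitor-high cells.

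**Figure D1:**
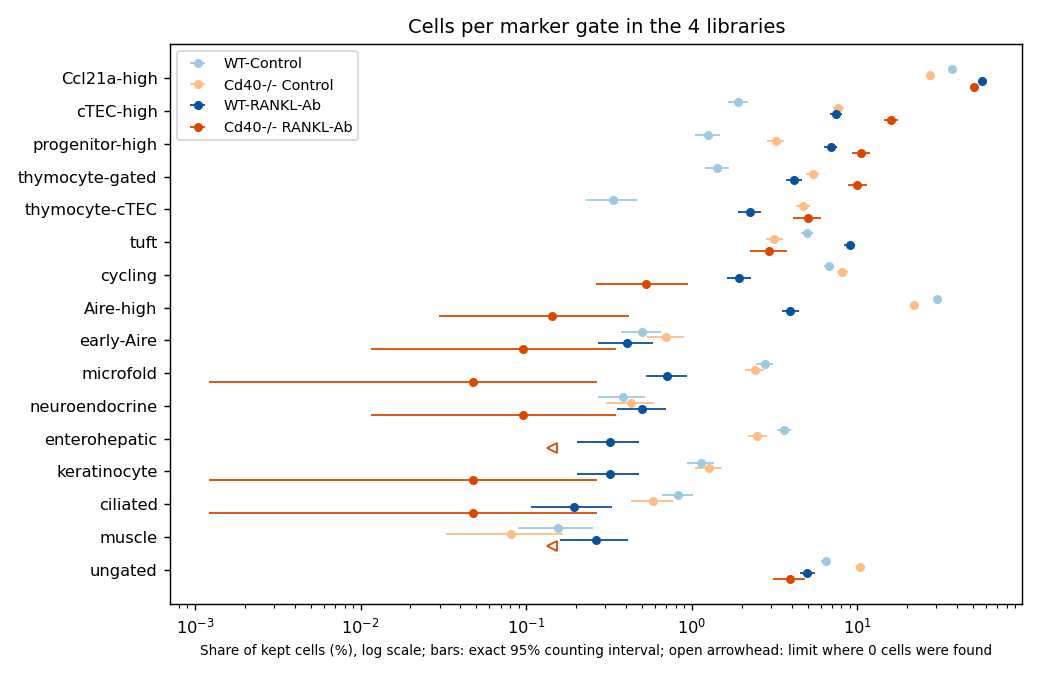
Share of kept cells in each marker gate (percent, log axis) for the 4 libraries, with exact 95% intervals as bars and an open arrowhead at the limit where a gate holds 0 cells. Aire-high cells stand at 3.94% in WT-RANKL-Ab and 0.144% in Cd40-/- RANKL-Ab, and cTEC-high cells at 7.40% and 16.0%.

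Gene expression was then compared class by class, with UMIs summed over the cells of a class and log2 ratios of Cd40-/- RANKL-Ab to WT-RANKL-Ab taken after adding 5 CPM. A gene counts as higher or lower past 2-fold, and to be tested it needed 50 UMIs summed over the pair of libraries. Over all kept cells, 158 of 14568 genes (1.08%) were higher and 483 (3.32%) lower, 4.4% in sum. Among gated classes, changes were most numerous in Ccl21a-high cells, with 242 higher (1.95%) and 318 lower (2.57%) of 12382, or 4.52% in sum, and in tuft cells, with 103 higher (1.22%) and 298 lower (3.53%) of 8438. Ungated cells had 552 genes past 2-fold of 5238, or 10.5%. Changes were fewer in cTEC-high cells, at 55 higher (0.581%) and 124 lower (1.31%) of 9460, and in progenitor-high cells, at 59 higher (0.706%) and 29 lower (0.347%) of 8357. These counts move with the depth of a class and are not a measure of how far a class changed.

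Over all kept cells, the 10 largest falls were led by the immunoglobulin gene Igkc (-5.98) and the airway antimicrobial gene Bpifa1 (-4.88), both carried by few cells, as 3 cells hold 91.9% of the UMIs of Igkc in WT-RANKL-Ab and 16 cells 90.3% of those of Bpifa1. Others were the antimicrobial lectin Reg3g, from 615 to 48.5 CPM (log2 ratio -3.54), against 1511 and 1164 CPM without the antibody, and the milk protein gene Csn2, an Aire-dependent antigen, from 94.4 to 3.65 CPM (log2 ratio -3.52), against 799 and 665 CPM without the antibody. Ccl5, a chemokine for T cells and myeloid cells, fell from 216 to 11.1 CPM (log2 ratio -3.78), against 628 and 261 CPM without the antibody. Cdkn1c, which encodes a CDK inhibitor of differentiated cells, fell from 149 to 9.35 CPM (-3.43), the lysozyme gene Lyz1 from 65.1 to 1.41 CPM (-3.45), its neighbour Lyz2 from 84.9 to 3.86 CPM (-3.34), the neuroendocrine gene Resp18 from 87.5 to 1.04 CPM (-3.94) and the colonic surface gene Lypd8 from 50.4 to 0.522 CPM (-3.33). Of the 18 tested genes on a list of 25 tissue-restricted antigens, 10 were lower and 0 higher, at a median of -1.06 beside -0.01 for all genes, and the list's sum went from 300.0 to 36.5 CPM, against 3158 and 2147 CPM in the controls. Tuft effectors had 11 of 13 lower and a median of -1.33. The chemokine list had 6 of 15 lower and 2 higher, at a median of -0.44, and a sum that went from 17959.7 to 22669.6 CPM, with Ccl21a its most abundant member. Ccl20 fell from 46.1 to 1.25 CPM (-3.03), Ccl17, a ligand of CCR4 on thymocytes, from 23.6 to 0.261 CPM (-2.44), and Ccl22, the other ligand of CCR4, went from 1063 UMIs to 0, at least 139.5-fold lower.

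Rises over all cells held genes of cTECs and T cells. The cTEC-associated list had 6 of 13 genes higher, at a median of 0.96 (control comparison 1.29), which was 0.46 without shared barcodes. Psmb11, the thymoproteasome subunit of cTECs, rose from 442 to 988 CPM (log2 ratio 1.15), against 79.0 and 405 CPM without the antibody. The chemokine genes Ccl25 and Cxcl12, which cTECs use to retain early thymocytes, rose from 1451 to 2918 CPM (1.01) and from 459.9 to 965 CPM (1.06). Cd83, which stabilises MHC class II on cTECs, rose from 62.8 to 174 CPM (1.40), and the Notch ligand Dll4 from 16.8 to 38.9 CPM (1.01). Markers of T cells rose as well, with 8 of 13 higher and a sum that went from 968 to 2056 CPM (187 and 1059 CPM in the controls), led by Trbc2. The histone gene Hist1h2ap, the largest rise at a log2 ratio of 3.56, went from 15.7 to 238 CPM against 80.5 and 87.5 CPM in the controls and came down to 2.15 without shared barcodes, the histone gene Hist1h2ae from 1.73 to 0.67 and the T cell kinase gene Txk from 1.85 to 1.25. S-phase and mitotic genes had a median of 0.05 with these barcodes and -0.67 without.

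Ccl21a-high cells were the largest class, with 4063 and 1054 cells, and their comparison asks what CD40 sustains in a marker class present in both libraries. They lost interferon-stimulated genes and single transcripts linked to Notch and NF-kB and gained immediate early, matrix and growth factor genes. Of the 1183 and 64 cells over the Aire threshold, 282 and 3 were left to the Aire gate, and earlier gates took the others. How many of these are Ccl21a-high was not counted, and the comparison was not repeated without them. Whether falls in this class come from fewer such cells or lower levels per cell was not tested. Genes picked by their change with the antibody were compared in the controls too. Of the 318 genes that were lower, 23 (7.23%) were so without the antibody too, where 0.815% of all genes tested were lower, and the median of all 318 was -0.37 there. Of the 242 that were higher, 43 (17.8%) were higher and 8 lower past 2-fold in the controls, where 0.932% of all genes were higher, at a median of 0.50 beside 0.08 for all genes.

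Interferon-stimulated genes had the largest share of lower genes of any list in this class. Of 39 tested, 22 were lower and 0 higher, with a median log2 ratio of -1.06 beside -0.03 for all genes of the class and 0.01 in the control comparison. Their sum was 13212 and 9949 CPM in WT-Control and Cd40-/- Control and went from 8391 to 4443 CPM with the antibody. Irf7 (ENSMUSG00000025498, chromosome 7, 141262706 to 141266481, - strand), the transcription factor that amplifies type I interferon responses, fell from 134 to 10.5 CPM (log2 ratio -3.17), against 309 and 179 CPM without the antibody. The counting interval of its ratio was -3.99 to -3.37 on the log2 scale, without added CPM. Ifit3, which encodes an antiviral tetratricopeptide protein, fell from 139.9 to 21.5 CPM (log2 ratio -2.45), against 316 and 284 CPM without the antibody. The ubiquitin-like modifier gene Isg15 fell from 398 to 88.2 CPM (log2 ratio -2.11), against 1157 and 616 CPM without the antibody. Ifi27l2a, the most abundant member past 2-fold, fell from 2323 to 898 CPM (-1.37), and the oligoadenylate synthetase genes Oasl1 and Oasl2 had log2 ratios of -1.74 and -1.38. Ly6e, a viral entry factor and the second most abundant member, stayed within 2-fold from 1963 to 1487 CPM, as did Ifi27 from 295 to 443 CPM (0.58). Of 11 genes for interferons and their receptors, 6 had enough UMIs to be tested, all of them receptor genes, and 0 of these were past 2-fold, at a median of 0.18.

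The interferon-induced GTPases of the GBP and IRG families, which respond to interferon gamma in particular, moved less, with 3 of 14 lower, 0 higher and a median of -0.27 (control comparison 0.07). Iigp1, which attacks vacuoles of pathogens, fell from 222 to 103 CPM (-1.07), and Gbp3 and Igtp had log2 ratios of -1.18 and -1.01. Promoters of the interferon list were searched for the interferon-response pattern, GAAA repeated after a gap of 2 bases, on both strands in windows of 300 bases that end 50 bases after the transcript start. It was present in 13 of 34 promoters from 27 genes of the list (38.2%) and in 1131 of 32851 promoters of all genes (3.44%). Of the 22 members lower in Ccl21a-high cells 15 matched a promoter each, and 7 of these 15 held it (46.7%), while members that were not lower had 19 promoters from 12 genes, of which 6 held it (31.6%). Ifit3 carries 2 matches, Isg15 3 and Irf7 0. The promoters of Ifit3 (GRCm38.p6 chromosome 19, 34583279 to 34583578, + strand) and Isg15 (chromosome 4, 156200769 to 156201068, - strand), taken from RefSeq, read as follows with matches in capitals.

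Ifit3: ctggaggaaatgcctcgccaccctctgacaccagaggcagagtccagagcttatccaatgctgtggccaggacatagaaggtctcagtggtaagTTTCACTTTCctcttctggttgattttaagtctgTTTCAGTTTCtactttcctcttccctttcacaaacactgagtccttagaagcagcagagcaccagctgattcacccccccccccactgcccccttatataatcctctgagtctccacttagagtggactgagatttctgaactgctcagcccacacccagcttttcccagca

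Isg15: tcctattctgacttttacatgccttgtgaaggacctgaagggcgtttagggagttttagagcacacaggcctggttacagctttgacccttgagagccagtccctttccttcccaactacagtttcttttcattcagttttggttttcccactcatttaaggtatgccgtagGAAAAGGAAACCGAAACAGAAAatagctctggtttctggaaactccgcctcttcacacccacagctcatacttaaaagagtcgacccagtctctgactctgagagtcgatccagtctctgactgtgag

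Genes that act in or downstream of TNF receptor signals changed singly in Ccl21a-high cells. Cd40, the deleted gene, went from 26.6 to 2.68 CPM (log2 ratio -2.04), against 49.1 and 4.10 CPM without the antibody. Ltb, which encodes the beta chain of lymphotoxin, fell from 26.2 to 3.27 CPM (log2 ratio -1.92), against 32.0 and 8.13 CPM without the antibody. The receptor RANK is encoded by Tnfrsf11a, which stayed within 2-fold from 79.0 to 47.1 CPM. Both lists that hold such genes changed little as a whole: 2 of 12 TNF receptor, ligand and adaptor genes, Cd40 among them, and 1 of 18 NF-kB subunits and feedback targets were lower, at medians of -0.25 and -0.09. Bcl2a1d, an anti-apoptotic NF-kB target, was the NF-kB list's loss and fell from 29.8 to 1.75 CPM (log2 ratio -2.37), against 56.1 and 79.4 CPM without the antibody. Relb, the subunit of the alternative NF-kB pathway, went from 172 to 100.2 CPM (-0.75) and the inhibitor gene Nfkbia from 971 to 698 CPM (-0.47).

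Antigen presentation genes were within 2-fold for the most part, with 2 of 11 MHC class II genes lower (median -0.40) and 0 of 14 MHC class I and immunoproteasome genes (median -0.31). Ctss, the cathepsin that trims the invariant chain for class II loading, fell from 73.1 to 15.5 CPM (log2 ratio -1.93), against 107 and 84.3 CPM without the antibody. H2-Oa, which restrains class II peptide exchange, fell from 158 to 62.2 CPM (-1.28), the protease gene Ctsh from 48.7 to 20.7 CPM (-1.07) among 2 of 10 antigen-processing proteases (median 0.11), while the invariant chain gene Cd74 stayed within 2-fold from 14641 to 10825 CPM (-0.44). Costimulatory and checkpoint ligands had 1 of 6 lower, Cd70, a ligand for CD27 on T cells, which fell from 17.8 to 0.933 CPM (-1.94). Regulators of the Aire type had 3 of 9 lower: Aire fell from 17.6 to 0.467 CPM (-2.04), Irf4, a transcription factor induced by NF-kB, from 198 UMIs to 1 with an interval of -11.35 to -3.54 for its log2 ratio, and Fezf2, which drives Aire-independent antigens, from 309.8 to 142 CPM (log2 ratio -1.10), against 248 and 187 CPM without the antibody. Aire, Fezf2 and Cd70 are markers of the Aire gate, which came after the Ccl21a gate, so cells with both kinds of marker are counted among Ccl21a-high cells. Tissue-restricted antigens had 2 of 9 lower at a median of -0.84, mimetic-lineage transcription factors 3 of 9, with Spib of microfold cells falling from 69.8 to 29.1 CPM (-1.14), and tuft effectors 2 of 7.

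Chemokine genes of Ccl21a-high cells were lower or within 2-fold. Ccl11, a ligand of CCR3, fell from 139 to 27.0 CPM (log2 ratio -2.17), against 812 and 775 CPM without the antibody. Ccl5 and the CXCR3 ligand Cxcl9 fell from 53.3 to 11.3 CPM (-1.84) and from 53.5 to 13 CPM (-1.70). Cxcl10, which shares its receptor with Cxcl9, was level from 280.0 to 286 CPM (0.03), as was Ccl19, a partner of CCL21 at CCR7, from 264 to 226 CPM (-0.22), and Cxcl12 stayed within 2-fold from 127 to 240.5 CPM (0.89). Over the list 3 of 13 were lower and 0 higher, at a median of -0.39 against -0.44 without the antibody.

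The 10 largest falls of Ccl21a-high cells included, beside Irf7, Laptm5 (ENSMUSG00000028581, chromosome 4, 130913125 to 130936141, + strand), a lysosomal membrane gene better known from blood cells, which went from 67.1 to 2.57 CPM (log2 ratio -3.25), against 73.4 and 60.2 CPM without the antibody. The others were Utf1, a chromatin factor of pluripotent cells (from 65.1 to 3.38 CPM), the cartilage matrix gene Matn1 (from 68.1 to 4.20 CPM), the lipid receptor gene Trem2 (from 62.3 to 3.73 CPM), the detoxifying Cyp2f2 (from 79.3 to 7.58 CPM), the metabolic hormone gene Fgf21 (from 166 to 21.8 CPM), Csn2, the non-coding Gm13391 and Bpifa1, whose UMIs came to 69.2% from 1 cell. For these 9 the log2 ratios ran from -3.25 to -2.67. Utf1 is a marker of the early-Aire gate, which came after the Ccl21a gate, so cells with both are counted here. In the controls Trem2 was past 2-fold lower too (-1.59), and Laptm5 (-0.27), Utf1 (-0.43), Matn1 (-0.60) and Fgf21 (-0.66) were not.

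Immediate early genes moved the other way. Of 21 tested AP-1 and immediate early genes, 9 were higher and 0 lower, at a median of 0.94 against 0.38 without the antibody. Their sum went from 3651 to 6987 CPM with the antibody and was 3972 and 5193 CPM in the controls. Fosb, an AP-1 subunit, rose from 20.7 to 122 CPM (log2 ratio 2.30), against 34.0 and 77.3 CPM without the antibody. Atf3, a stress-induced partner of Jun, rose from 40.002 to 191 CPM (log2 ratio 2.12), against 99.2 and 131 CPM without the antibody, and Fos from 416 to 1192 CPM (log2 ratio 1.51), against 440.0 and 664 CPM without the antibody. Klf2, a factor induced by shear and statins, rose from 99.97 to 382 CPM (1.88), and Ier3, which blunts apoptosis, from 25.4 to 84.8 CPM (1.56). Jun and Junb stayed just within 2-fold at 0.94 and 0.86, and Jund, the most abundant member in WT-RANKL-Ab, was level from 834 to 796 CPM (-0.07). Immediate early genes also respond to tissue dissociation, which these data do not separate from a state in the tissue. Heat shock genes, another readout of handling, had a median of -0.06 and 1 of 10 higher, Hspa1b, which rose from 53.7 to 146 CPM (1.37).

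Matrix and growth factor genes made up the second gain. Of 18 extracellular matrix genes 8 were higher and 0 lower, at a median of 0.96 (0.70 without the antibody). Fn1, the fibronectin gene, rose from 23.2 to 125 CPM (log2 ratio 2.20), against 16.3 and 57.7 CPM without the antibody. Sparc, which binds collagen, rose from 265 to 845 CPM (log2 ratio 1.65), against 216 and 459 CPM without the antibody. The collagen genes Col12a1 and Col3a1 rose from 58.4 to 213 CPM (1.78) and from 3.18 to 23.7 CPM (1.81), while Mgp, an inhibitor of calcification, stayed just within 2-fold from 936 to 1850.3 CPM (0.98). Growth factor and Wnt modulators had 5 of 16 higher at a median of 0.77 (0.44 in the controls). Fst, an antagonist of activins, rose from 55.5 to 207 CPM (log2 ratio 1.81), against 122 and 136 CPM without the antibody, and Hgf, a growth factor for epithelia, from 14.3 to 37.6 CPM (1.14). Fst is also a marker of the progenitor gate, which came after the Ccl21a gate. Igfbp2, which binds insulin-like growth factors, rose from 154 to 326 CPM (1.06), while Igfbp5 had a log2 ratio of -0.95 with and 0.81 without the antibody. Because more Ccl21a-high cells of Cd40-/- RANKL-Ab passed the progenitor threshold, the comparison was repeated in those under it, a setting chosen after seeing the data. There 219 genes were higher and 276 lower, with list medians of -1.01 for interferon-stimulated, 0.98 for immediate early and 0.70 for matrix genes, and -0.79 for chemokine genes, the largest move of a list.

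Among single genes, the coagulation initiator F3 (tissue factor, ENSMUSG00000028128, chromosome 3, 121723537 to 121735048, + strand) had the largest rise, from 21.4 to 209 CPM (log2 ratio 3.02), against 43.6 and 123 CPM without the antibody. The counting interval of its ratio without added CPM was 3.15 to 3.42 on the log2 scale. Osr1, a transcription factor of embryonic mesenchyme, rose from 2.21 to 40.4 CPM (log2 ratio 2.65), against 4.68 and 12.4 CPM without the antibody. Cav1, the coat protein gene of caveolae, rose from 4.61 to 44.8 CPM (2.37), the crosslinking enzyme gene Tgm2 from 6.67 to 53.7 CPM (2.33), the growth factor binding protein gene Igfbp3 from 31.9 to 181 CPM (2.33), the annexin gene Anxa8 from 31.6 to 176 CPM (2.31), the hypoxia-linked Ndufa4l2 from 1.94 to 30.5 CPM (2.35) and the metallothionein gene Mt2 from 102 to 513 CPM (2.28). Cav1 and Tgm2 were past 2-fold higher in the controls as well (1.05 and 1.20), as were F3 (1.40) and Fosb (1.08), and Mt2 was not (0.22). Keratins had 2 of 8 higher, Krt19, of simple and progenitor epithelia, from 7.13 to 41.0 CPM (1.92) and the basal Krt15 from 4.65 to 15.2 CPM (1.06).

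Notch pathway genes moved both ways. Of 12 tested 5 were lower and 2 higher, at a median of -0.74 against -0.01 in the controls. Among the lower genes, Hes6 is also a marker of the early-Aire gate, which came after the Ccl21a gate. Nrarp, a feedback target of Notch, fell from 33.1 to 6.30 CPM (-1.75), the receptor gene Notch3 from 16.5 to 3.5 CPM (-1.34), the target gene Heyl from 31.2 to 8.98 CPM (-1.37), Hes6, which encodes an antagonist of Hes1, from 513 to 241 CPM (-1.07), and the receptor gene Notch1 from 77.7 to 35.2 CPM (-1.04), while Notch2 rose from 39.0 to 111 CPM (1.39) and the ligand gene Dll1 from 9.65 to 28.2 CPM (1.18). Among G1 cyclins and CDK inhibitors, 3 of 10 were lower and 0 higher, at a median of -0.54: Ccnd2, a D-type cyclin, from 266 to 90.9 CPM (-1.5), Ccnd1 from 158 to 70.6 CPM (-1.11) and the inhibitor Cdkn1c from 41.0 to 8.75 CPM (-1.74). S-phase and mitotic genes had 0 of 19 past 2-fold at a median of -0.16. No gene was past 2-fold among cTEC-associated genes (13 tested, median 0.31) and thymic epithelial identity factors (10 tested, median -0.00) either.

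Transcripts of other cell types were read in Ccl21a-high cells as lists. T lineage genes had 0 of 6 past 2-fold, with a sum that went from 63.7 to 63.2 CPM. Myeloid genes had 2 of 4 lower and a sum that went from 44.7 to 8.17 CPM, B lineage genes 1 of 2 lower, and endothelial genes 0 of 2. Fibroblast and pericyte genes had 1 of 4 higher and 1 lower, the pericyte gene Rgs5, from 413 to 83.3 CPM (log2 ratio -2.24), against 678 and 529 CPM without the antibody, while Acta2, a smooth muscle actin gene also seen in TECs, went from 1617 to 2630.0 CPM (0.70). The myeloid sum included the lysozyme gene Lyz2, which mimetic cells express too.

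**Figure D2:**
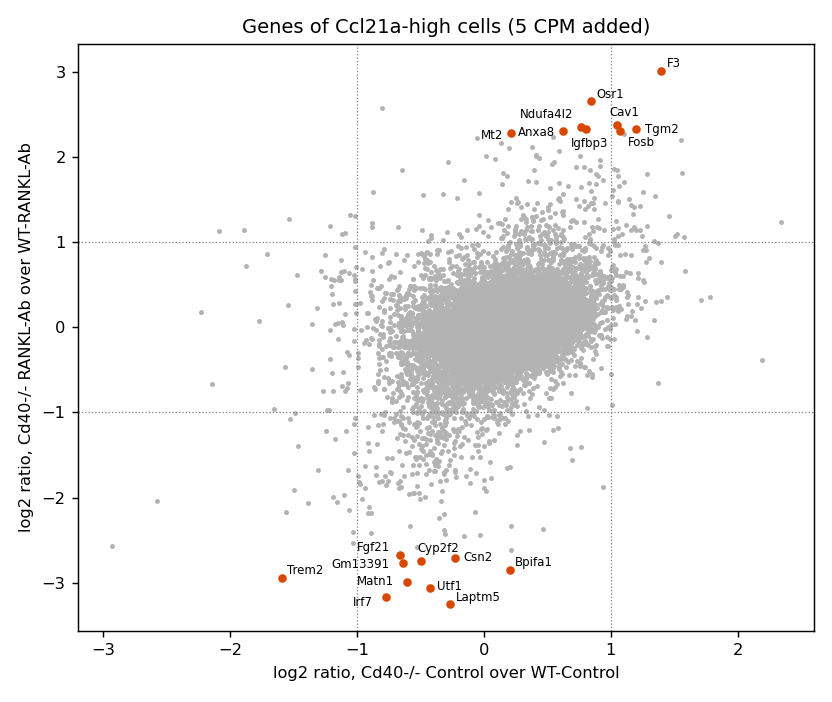
Log2 ratio of Cd40-/- to WT for each gene in Ccl21a-high cells, without the antibody on the x axis and with it on the y axis, after adding 5 CPM, with genes of large rises and falls labelled. Irf7 lies at -0.77 and -3.17 and F3 at 1.40 and 3.02, so both are farther from 0 with the antibody.

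Progenitor-high cells, 493 in WT-RANKL-Ab and 219 in Cd40-/- RANKL-Ab, repeated the interferon loss and the immediate early gain on a smaller scale. Interferon-stimulated genes had 6 of 32 lower and 0 higher, at a median of -0.70 against -0.10 without the antibody and -0.02 for all genes of the class. Ly6a, an interferon-induced surface marker of progenitors, fell from 1253 to 264 CPM (log2 ratio -2.23), against 2688 and 1426 CPM without the antibody. Ifi27l2a fell from 1753 to 535 CPM (log2 ratio -1.70), against 5414 and 1732 CPM without the antibody. Bst2, which tethers virus to the membrane, fell from 271 to 93.3 CPM (-1.49), and Irf7 from 49.4 to 17.8 CPM (-1.25). The class I-like genes H2-Q7 and H2-Q6 fell from 222 to 58.3 CPM (-1.84) and from 120.4 to 38.8 CPM (-1.52), the growth regulator gene Slfn2 from 30.03 to 3.24 CPM (-2.09) and the proteoglycan gene Ogn from 40.7 to 9.17 CPM (-1.69). Resp18 and Cd52 were also among the largest falls, but 99.5% and 92.6% of their UMIs in WT-RANKL-Ab came from 1 cell. AP-1 and immediate early genes had 7 of 18 higher at a median of 0.72 with and 0.92 without the antibody, where all genes of the class were at 0.21. Without shared barcodes the median with the antibody was 0.56. Junb rose from 538 to 1264 CPM (1.23), the mRNA decay factor gene Zfp36 from 159 to 391 CPM (1.27) and Jun from 729 to 1516 CPM (1.05). The neutrophil chemokine gene Cxcl1 rose from 4.20 to 36.7 CPM (log2 ratio 2.18), against 4.06 and 25.3 CPM without the antibody, from 13 and 68 UMIs, and Cxcl10 from 86.8 to 256 CPM (log2 ratio 1.51), against 59.9 and 261 CPM without the antibody. Cxcl10 thus rose in a class in which Irf7 fell. Matrix genes, the gain of Ccl21a-high cells, had 0 of 18 past 2-fold at a median of -0.21, and growth factor and Wnt modulators 0 of 14. Spry2, a feedback inhibitor of receptor kinases, rose from 31.6 to 98.7 CPM (1.5).

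In cTEC-high cells, 530 and 334, the interferon and immediate early lists stayed nearer to the median of all genes than in Ccl21a-high cells, and others did not. Interferon-stimulated genes had 3 of 33 lower at a median of -0.26 (0.22 in the controls), and AP-1 and immediate early genes 1 of 19 higher at 0.27 (0.70), where all genes of the class had a median of 0.04 with the antibody and 0.30 in the controls. That higher gene was Fosb, which rose from 14.2 to 67.8 CPM (log2 ratio 1.92), against 9.09 and 56.6 CPM without the antibody. GBP and IRG GTPases had 0 of 8 past 2-fold at a median of -0.41 (-0.27 in Ccl21a-high cells), MHC class II genes 2 of 11 lower at -0.36 (-0.40) and chemokine genes 2 of 7 lower at -0.36 (-0.39). cTEC-associated genes were level, with 0 of 8 past 2-fold and a median of 0.13. Regulators of the Aire type had 2 of 8 lower at a median of 0.04. Aire fell from 49.6 to 3.07 CPM (log2 ratio -2.76), against 288 and 44.4 CPM without the antibody, Fezf2 from 237 to 102 CPM (-1.18), Ccl5 from 87.9 to 16.7 CPM (-2.10) and Ctss from 41.9 to 9.20 CPM (-1.72). Among the largest falls were the amino acid oxidase gene Il4i1 (from 42.5 to 1.12 CPM), the secretion gene Cadps (from 54.9 to 1.95 CPM), the neuropeptide gene Calcb, from 167 UMIs to 0 or at least 41.8-fold, Utf1 (from 50.3 to 2.79 CPM), Reg3g and Fgf21. Of 115 lower genes tested in both comparisons, 101 (87.8%) were lower without the antibody too, at a median of -2.30, where 7.93% of all genes tested were lower and 10.8% higher. Aire, Cadps, Calcb, Il4i1 and Utf1 were thus highest in WT-Control and lowest in Cd40-/- RANKL-Ab, and free RNA, doublets, mTECs at the edge of the gate and expression in cTECs cannot be told apart here. Lower genes in this class numbered 124, but 233 with thresholds times 0.5, 63 at a cTEC threshold of 200 and 34 with thresholds doubled. Rises included Spry2 from 12.4 to 51.0 CPM (1.69), the angiogenic factor gene Vegfa from 5.65 to 29.0 CPM (1.67) and the heat shock gene Hspa1b from 40.4 to 115 CPM (1.40). The immunoglobulin gene Igkc went from 1099 UMIs to 0, with 94.6% of them in 1 cell.

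Tuft cells, 645 and 61, were gated on other tuft genes, which in part sets the level of tuft effectors among them, and had 0 of 9 effectors past 2-fold, a median of 0.05 and a sum that went from 7315 to 6822 CPM. They lost interferon-stimulated genes as Ccl21a-high cells did, with 17 of 34 lower, 0 higher and a median of -1.02 against -0.14 without the antibody and -0.04 for all genes. Ifi27l2a fell from 859 to 88.5 CPM (log2 ratio -3.21), against 1494 and 746 CPM without the antibody. Ly6a fell from 157 to 11.3 CPM (log2 ratio -3.31), against 319.6 and 316 CPM without the antibody, and Rtp4, an interferon-induced chaperone, from 95.8 to 13.6 CPM (-2.44). Cxcl2, a neutrophil chemokine and NF-kB target, fell from 131 to 2.27 CPM (log2 ratio -4.22), against 142 and 107 CPM without the antibody. It had 561 UMIs and 1 UMI, and the interval of its log2 ratio without added CPM ran from -11.16 to -3.36. Cdkn1c fell from 428 to 68.1 CPM (log2 ratio -2.57), against 118 and 374 CPM without the antibody, and the stress keratin gene Krt17 from 852 to 272 CPM (-1.63). The fatty acid carrier gene Fabp4 fell from 170.2 to 11.3 CPM (-3.42) and the synuclein gene Sncg from 236 UMIs to 0, at least 8.08-fold. Of 298 lower genes, 245 had counting intervals below 0 throughout. AP-1 and immediate early genes had 0 of 21 past 2-fold at 0.26. The rise of the cTEC genes Psmb11, Tbata and Ccl25 in this class rested mostly on the top cell of each gene. That cell held 82.1%, 74.9% and 74.3% of the gene's UMIs, and whether it was the same cell was not tested. Without shared barcodes, which left 59 of the 61 cells, their log2 ratios of 2.70, 1.99 and 1.77 became 0.39, 0.07 and -0.06.

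**Figure D3:**
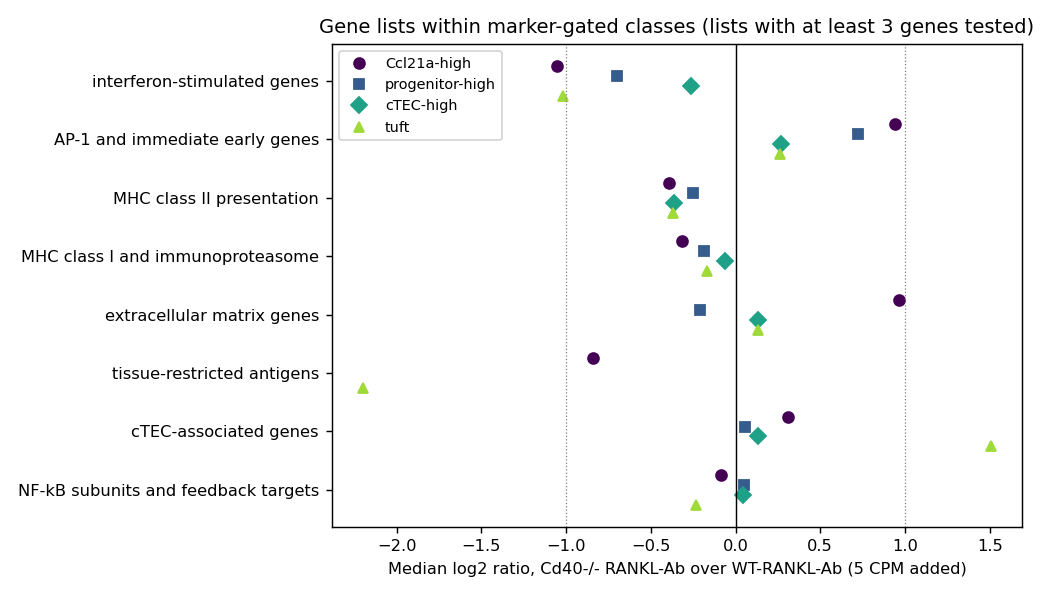
Median log2 ratio of Cd40-/- RANKL-Ab to WT-RANKL-Ab for 8 gene lists with at least 3 genes tested, in Ccl21a-high, progenitor-high, cTEC-high and tuft cells. Dotted lines mark -1 and 1, and the interferon-stimulated genes lie at -1.06, -0.70, -0.26 and -1.02.

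Thymocyte-gated cells, 296 and 208, had 95 genes higher (1.61%) and 118 lower (2%) of 5914, or 3.6% in sum, and thymocyte-cTEC droplets, 160 and 104, 60 higher (0.68%) and 11 lower (0.125%) of 8818. Without shared barcodes thymocyte-gated cells, 290 and 183, had 179 higher and 253 lower of 5284, and the 24 thymocyte-cTEC droplets left in Cd40-/- RANKL-Ab were too few to compare, so their values stand only with these barcodes. In thymocyte-gated cells 5 of 9 MHC class II genes were lower (median -1.20, or -1.64 without shared barcodes), as were 4 of 9 chemokine genes (median -0.94). Past 2-fold lower were 0 of 6 keratins, 0 of 6 thymic epithelial identity factors and 1 of 10 cTEC-associated genes. Their medians of -0.41, -0.24 and -0.41 were also below that of all genes of the class, 0.01. Epcam went from 179 to 98.2 CPM in these cells. Ubd, a ubiquitin-like gene of mature mTECs, fell from 395 to 31.2 CPM (log2 ratio -3.47), against 5721 and 1032 CPM without the antibody. The gains were led by Hist1h2ap, from 169 to 1776 CPM (log2 ratio 3.36), against 211 and 485 CPM without the antibody, and Txk from 76.4 to 298 CPM (1.89). Interferon-stimulated genes had 3 of 19 lower in thymocyte-gated cells and 0 of 28 past 2-fold in thymocyte-cTEC droplets, at medians of -0.49 and -0.00. Ungated cells, 357 and 81, had 134 genes higher (2.56%) and 418 lower (7.98%) of 5238, the largest percentage of any class, but their median depth was 1947 UMIs in WT-RANKL-Ab and 6408 in Cd40-/- RANKL-Ab, so the libraries may not hold like cells there.

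A set of 13 genes was past 2-fold in the same direction in all 6 gated classes compared, 10 higher and 3 lower. Among those higher were Gstp1, a glutathione transferase gene, Grcc10, Isca1, Gm10076, Gm11808 and the ribosomal protein genes Rps21, Rps29, Rpl36 and Rpl37. In the whole libraries Rps29 was at 2869 CPM in WT-Control and 1005 in WT-RANKL-Ab, against 1077 and 2431 in the matching Cd40-/- libraries. Lower in every class were Gm13305, Gm9493 and Ly6a, and Ly6a, at 814 and 825 CPM in the WT libraries and 678 and 211 CPM in the Cd40-/- libraries, is the member known to respond to interferon. For 9 of the 13 the sign was opposite without the antibody. A difference that covers every class, thymocytes included, cannot be told apart from a difference between library preparations with 1 library per condition.

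Genes within 5 megabases of Cd40 were read because deletion by gene targeting can leave flanking sequence from another strain. The Cd40-/- mice were made on a C57BL/6 background, and whether such sequence remains was not tested. In Ccl21a-high cells 73 were tested and 6.85% past 2-fold, beside 4.52% of all genes of the class: Ptprt (1.04), Jph2 (1.07) and Sulf2 (1.06) were higher and Pkig (-1.21) and Mmp9, a matrix protease (-1.17), lower, with the neighbours at a median of -0.04 beside -0.03 for all genes. With cells of every class counted, Ada (1.43) and Neurl2 (1.09) were higher and Wfdc2 (-1.36) lower among 84 (3.57%, beside 4.4%). Neighbours in the other classes numbered 57 in cTEC-high cells (3.51% past 2-fold, beside 1.89%), with Serinc3 (1.07) and Ada (1.04) higher, 48 in progenitor-high cells (2.08%, beside 1.05%), with Tshz2 lower (-1.20), and 49 in tuft cells (10.2%, beside 4.75%), with Pigt (1.30) and Pltp (1.51) higher and Tomm34 (-1.03), Mmp9 and Nfatc2 lower. Among 34 in thymocyte-gated cells (8.82%, beside 3.6%) Serinc3 (1.20) was higher and Pkig (-1.12) and Wfdc2 (-1.19) lower, and among 29 in ungated cells (10.3%, beside 10.5%) Wfdc2 (-1.71), Acot8 (-1.14) and Ctsa (-1.09) were lower. Pkig, Mmp9 and Wfdc2 were thus each lower in 2 classes and Serinc3 higher in 2, and 0 of 53 were past 2-fold in thymocyte-cTEC droplets.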

How the data were processed

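Droplet-based single-cell RNA-seq of TECs from 4 conditions was read from the matrices of UMI counts that the authors deposited for barcodes called as cells, without normalization and before their filters. Reads were trimmed and aligned to mm10 by the authors. The labels name Cell Ranger 5.1 and the methods another release, and labels and methods also differ in the version of the library kit. The other assays of the study were not used.

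Barcodes were kept if they had 200 or more genes and mitochondrial genes gave no more than 25% of their UMIs. Each cell went to the first gate it passed, in the order thymocyte, tuft, microfold, neuroendocrine, ciliated, keratinocyte, enterohepatic, muscle, ionocyte, cycling, cTEC, Ccl21a, progenitor, Aire and early-Aire. Thymocyte-gated cells over the cTEC threshold were called thymocyte-cTEC. Thresholds for thymocyte (7.6 summed marker UMIs per 10000), tuft (29), cycling (6.9), cTEC (120) and Ccl21a (22) markers were set at the valley of the score density pooled over the 4 libraries with equal weight and no use of labels. The others (microfold 30, neuroendocrine 10, ciliated 15, keratinocyte 50, enterohepatic 100, muscle 15, ionocyte 10, progenitor 20, Aire 20, early-Aire 10), the order and the number of markers needed (3, but 2 for early-Aire and 1 for thymocyte and Ccl21a) were set by hand after the distributions had been seen. For cTEC, thresholds of 20, 50, 100 and 200 had been looked at first, and 200 had been chosen in part because its shares came near those of an earlier report on these data. The valley rule replaced it, and 200 is kept as an alternative. No doublets were removed.

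UMIs were summed over the cells of a class and scaled to 1000000 (CPM). Log2 ratios have 5 CPM added. Exact 95% intervals come from the Clopper-Pearson method where a share is given, the Poisson distribution (CPM) and the conditional binomial distribution (ratios). No test between conditions was run, because each has 1 library. Genes were named by a rule: Cd40, the 10 largest rises and 10 largest falls of each class with at least 50 cells in both libraries, leaving gate markers out, up to 4 members of each list by UMIs or by ratio past 2-fold, and genes within 5 megabases of Cd40 past 2-fold. Members and lists were chosen with earlier results on these data known. Other genes were chosen after their values were seen. A gene that the rule names is not reported here. The lists covered the NF-kB, interferon, antigen presentation, chemokine, AP-1, heat shock, cell cycle, matrix, growth factor, Notch, keratin, identity, cTEC and mimetic programs described here, sex-linked genes and markers of 7 other cell types.

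Python 3.11.15 was used with numpy 2.4.6, scipy 1.17.1, pandas 2.3.3, scanpy 1.11.5 and matplotlib 3.10.9, and R 4.3.3 with edgeR 4.0.16 and DESeq2 1.42.0. The calculation of ratios was checked on simulated counts with known differences. The alternatives were a mitochondrial limit of 13%, cells of at least 2000 UMIs, thresholds times 0.5 and times 2, thinning to 1000 UMIs, leaving out thymocyte-gated cells, cells with thymocyte UMIs or the 5% with the highest Scrublet scores, 1 or 10 CPM added, at least 10 or 100 UMIs, TMM and DESeq2 factors, totals without Ccl21a and mitochondrial genes, and the mean over cells of CPM.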

Additional observations from a re-analysis of the deposited data

Results flagged for a closer look

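The genes given here changed past 2-fold with Cd40 loss in one direction with the antibody and past 2-fold in the opposite direction without it, over all kept cells or in an epithelial class with at least 100 cells in every library. Each direction rests on 1 library a side, the comparisons with and without the antibody share no library, and the difference between them was not tested. Values are log2 ratios of Cd40-/- to WT with the antibody, followed by those without it.

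Over all kept cells, the genes of ribosomal proteins Rps21 (1.19 and -1.12), Rps29 (1.27 and -1.41) and Rpl36 (1.24 and -1.92) were higher with the antibody and lower without it. So were Ndufa3 of respiratory complex I (1.10 and -1.04) and Cox17, a copper chaperone of cytochrome oxidase (1.20 and -2.0). Gm9493 went the other way (-1.74 and 1.09). In Ccl21a-high cells the same held for Rps21 (1.19 and -1.22), Rps29 (1.27 and -1.54), Rpl36 (1.13 and -2.09), Rpl37 (1.32 and -1.05), Gm11808 (1.31 and -1.02), Ndufa3 (1.11 and -1.10), Cox17 (1.14 and -1.89) and 2200002D01Rik (1.09 and -1.12).

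In cTEC-high cells the genes were Rps21 (1.26 and -1.45), Rps29 (1.31 and -1.63), Rpl36 (1.27 and -2.06), Rpl37 (1.44 and -1.05), Rpl38 (1.22 and -1.02), Gm11808 (1.42 and -1.18), Ndufa3 (1.11 and -1.14) and Cox17 (1.44 and -2.23). Progenitor-high cells had Rps21 (1.20 and -1.47), Rps27 (1.24 and -1.02), Rps29 (1.30 and -1.67), Rpl36 (1.16 and -2.22), Rpl37 (1.35 and -1.13), Rpl38 (1.18 and -1.08), Gm11808 (1.26 and -1.06), Ndufa3 (1.03 and -1.03), Cox17 (1.24 and -1.91) and the initiation factor gene Eif3j1 (1.17 and -1.37). Gm9493 (-1.46 and 1.48) and the antimicrobial gene Reg3g (-2.10 and 1.08) were lower there with the antibody and higher without it, Reg3g from 94 and 6 UMIs with 60.6% of those of WT-RANKL-Ab in 1 cell.

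For the genes of ribosomal and mitochondrial proteins, the levels separate the libraries into WT-Control with Cd40-/- RANKL-Ab and WT-RANKL-Ab with Cd40-/- Control. Reg3g in progenitor-high cells does not follow this split, going from 33.5 to 30.3 CPM with the antibody in WT and from 76.5 to 3.24 CPM in Cd40-/-. In whole libraries Rpl36 was at 1743 and 1156 CPM in the former pair and 487 and 455 CPM in the latter. Cox17 was at 226 and 87.3 CPM against 35.1 and 52.7 CPM, and Ndufa3 at 249.9 and 260.2 CPM against 119 and 119 CPM. The split follows neither genotype nor antibody alone, and library preparation cannot be told apart from the combination of both.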

How the results depend on the processing

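Shares, counts of genes past 2-fold, list medians and named genes were recomputed under up to 18 alternatives. Of 86 values for 9 shares, 78 stayed within the counting interval, as did 1488 of 1625 values for 100 named genes, and 1804 of 1851 values for 113 list medians stayed between the lower and upper quartiles of the list's reported ratios. Of 166 values for 10 counts, 140 were within 1.5 times the reported count. No scaling moved the median of all genes of a class by more than 0.1 on the log2 scale.

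Without shared barcodes, a setting chosen after seeing the data, the share of thymocyte-cTEC cells reversed from 1.16 to -0.76 on the log2 scale and Ccl25 in tuft cells from 1.77 to -0.06. Of the thymocyte-cTEC class 24 cells of Cd40-/- RANKL-Ab were left. With the thresholds doubled the log2 ratio of the Ccl21a-high share moved from -0.16 to -0.05 and that of progenitor-high cells from 0.61 to 0.29, and with thresholds times 0.5 that of mimetic cells other than tuft from -3.31 to -1.58. Without thymocyte-gated cells in the denominator the Ccl21a-high ratio was -0.02. With the other gates ignored, a setting added after seeing the data, the ratio was -2.43 in place of -4.77 for Aire-high, -0.01 in place of -1.87 for cycling and 1.41 in place of 0.61 for progenitor-high cells. The cause was not tested. The shares of both thymocyte gates have no value in these last 2 settings.

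Adding 1 CPM raised and 10 CPM lowered the counts, since less or more of each ratio is damped. Over all kept cells 407 and 96 genes were higher (158 with 5 CPM) and 1224 and 284 lower (483), and in Ccl21a-high cells 460 and 155 higher (242) and 775 and 195 lower (318). In tuft cells 168 and 67 were higher (103) and 492 and 174 lower (298). Adding 1 CPM gave 109 higher genes in cTEC-high (55) and 53 lower in progenitor-high cells (29), and adding 10 CPM 80 lower in cTEC-high cells (124).

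Requiring 100 UMIs, which tests fewer genes, left 79 lower in cTEC-high cells and 50 higher and 161 lower in tuft cells. Requiring 10, which tests more, gave 45 lower in progenitor-high cells and 214 higher and 527 lower in tuft cells. The mean over cells of CPM gave 109 higher in cTEC-high and 184 higher in tuft cells. Lower genes of cTEC-high cells numbered 233 with thresholds times 0.5 and 34 times 2, and 63 at a cTEC threshold of 200, which was added after seeing the data. The cause of these changes was not tested. In the tuft comparison 61 cells with 440648 UMIs stand for Cd40-/- RANKL-Ab.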

Other observations

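Thymocyte-gated and ungated cells differed beyond the genes named above. In thymocyte-gated cells the log2 ratio was 1.63 for Tnfaip3, an NF-kB feedback inhibitor, which went from 18.2 to 67.1 CPM, and -4.14 for Ccl5, which went from 142 UMIs to 1 (interval -12.03 to -4.22 without added CPM) with 63.4% of the UMIs of WT-RANKL-Ab in 1 cell. Shisa2, an antagonist of Wnt and FGF receptors, rose in ungated cells from 75.01 to 373 CPM (log2 ratio 2.24), against 20.8 and 114 CPM without the antibody. Spink5, a protease inhibitor of the skin barrier, went from 551 UMIs to 1 there. Of the 14415 UMIs of Igkc in ungated cells of WT-RANKL-Ab, 98.3% came from 1 cell, as did 99.5% of those of Jchain, the joining chain of secreted antibodies.

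Isg20, an exonuclease gene of the interferon list, rose over all kept cells from 244 to 512 CPM (1.06) while 13 of its 39 members fell past 2-fold. Rag1, a recombinase gene of immature T cells, rose from 28.0 to 95.6 CPM (1.61). In the whole libraries B lineage genes had 3 of 4 lower and a sum that went from 455 to 44.5 CPM, with most of it in few cells. Myeloid genes had 2 of 7 lower, endothelial genes 0 of 6 past 2-fold, fibroblast and pericyte genes 1 higher and 1 lower of 6, erythroid genes 0 of 2 and parathyroid genes 0 of 1. Of the sex-linked genes only Xist had enough UMIs to be tested, at a log2 ratio of -0.13, and Kdm5d of the Y chromosome had 4 UMIs in WT-Control and 2 in Cd40-/- Control.

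No condition was replicated, the library of Cd40-/- RANKL-Ab is the smallest, and gates describe marker levels in sorted cells. The libraries do not measure cell numbers, protein or lineage. What differs between genotypes cannot be told apart from what differs between preparations.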
